A study of Mus musculus with 3 samples.

Results

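The aryl hydrocarbon receptor (AHR) and 4 of its target genes were followed in RNA bound to ribosomes of mouse cardiac endothelium. The genes Ahr, Cyp1b1, Cyp1a1, Ahrr and Tiparp were taken by their symbols from a table of 17583 genes, and each of the 5 symbols occurred once. The set was chosen by the measured spread of Cyp1b1 between replicates, so that spread is a description and was not tested. The RNA came from 3 EC-RiboTag mice of the genotype Cdh5-CreERT2;Rpl22tm1.1Psam, which form a single group. Cdh5-CreERT2 is a Cre recombinase under the promoter of VE-cadherin that tamoxifen activates, and Rpl22tm1.1Psam is an allele of a ribosomal protein that gains a hemagglutinin tag once Cre has acted. All 3 mice carried both alleles. Tagged ribosomes were pulled down from homogenized hearts and their RNA was read in single-end reads of 72 bases. The sample labels place heart collection at day 7 after coronary ligation. The titles carry Rz, and the study elsewhere abbreviates the remote zone of infarcted hearts as RZ, also for RiboTag material taken at that day, but the labels do not say whether these libraries hold the remote zone or the whole heart. No input, untagged or uninjured library was analysed here, so levels are given within the immunoprecipitate and no difference between conditions was tested.

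AHR is a transcription factor of the bHLH-PAS family that waits in the cytoplasm with HSP90 and p23 until it binds a ligand, such as a dioxin, a polycyclic aromatic hydrocarbon or a product of tryptophan breakdown. It then pairs with ARNT in the nucleus and binds response elements with the core GCGTG, which switches on the cytochrome P450 genes Cyp1a1, Cyp1a2 and Cyp1b1. The same elements drive its brakes: AHRR competes for ARNT, TIPARP adds ADP-ribose to AHR and promotes its degradation, and CYP1 enzymes break down ligands. In endothelial cells, CYP1B1 is known for roles in oxidative balance and angiogenesis, and CYP1 genes respond to shear stress.

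The stretches before the start sites show which response elements these genes carry, and they are printed because AHR binds such elements. A match alone does not make a gene a target of AHR. The stretches were read from the GRCm39 genome, the build of the deposited table. The search covered the 2000 bases before the start of the Ensembl canonical transcript, on both strands. The letters searched were the core GCGTG, the longer TNGCGTG that contains it, and TGANTCA, a loose form of the AP-1 element. N stands for any base. Among the 21757 protein-coding genes searched the same way, 68.7% held GCGTG, 18.5% held TNGCGTG and 43.7% held TGANTCA at least once. Cyp1b1 held GCGTG 12 times, and only 23 genes (0.106%) held it at least as often. It held TNGCGTG 3 times and TGANTCA 2 times. Both of these TGANTCA matches read TGATTCA, with T where the strict AP-1 element has C or G. The 300 bases of Cyp1b1 that hold most of the longer elements lie on chromosome 17, are read on the minus strand and cover no annotated exon, with TNGCGTG in capitals (as CACGCNA where it lies on the opposite strand).
Cyp1b1, 944 to 645 bases before the start, chr17:80023177-80023476: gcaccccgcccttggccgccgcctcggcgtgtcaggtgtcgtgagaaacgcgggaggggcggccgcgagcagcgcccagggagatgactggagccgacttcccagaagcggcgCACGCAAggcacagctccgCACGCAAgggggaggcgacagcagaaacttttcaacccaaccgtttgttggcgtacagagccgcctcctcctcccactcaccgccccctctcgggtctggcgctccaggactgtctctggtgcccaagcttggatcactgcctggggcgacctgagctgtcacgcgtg
Cyp1b1, 1641 bases before the start, chr17:80024157-80024183: cacttatgtaCACGCAAgtgtgtgtgc

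Cyp1a1 held TNGCGTG 6 times, the highest number among all genes searched, and GCGTG 10 times. Ahrr held TNGCGTG 2 times and GCGTG 6 times. Tiparp held no TNGCGTG and 6 cores, 3 of them in the last 250 bases. Ahr held neither of these elements in the window. It held TGANTCA 2 times, as TGATTCA and, nearer to the start, as TGACTCA. Cyp1a1, Ahrr and Tiparp held no TGANTCA. With 10 bases on each side and the match in capitals, the longer elements nearest to the start are shown for Cyp1a1 and Ahrr, the nearest cores for Tiparp, and the nearest AP-1 element for Ahr.
Cyp1a1, 143 bases before the start, chr9:57603989-57604015: caggcttacgCACGCTAgcctcaggaa
Cyp1a1, 72 bases before the start, chr9:57604060-57604086: tcctgctgtcTCGCGTGgatccttcct
Ahrr, 361 bases before the start, chr13:74440807-74440833: aaaggaggaaCACGCTAagtcttggtt
Ahrr, 17 bases before the start, chr13:74440463-74440489: gcggggcggcTCGCGTGctggggtggg
Tiparp, 186 bases before the start, chr3:65435124-65435148: aaacctagtaCACGCtcggcgcgga
Tiparp, 114 bases before the start, chr3:65435196-65435220: ggctgcaaaaCACGCgcataggcat
Ahr, 260 bases before the start, chr12:35585301-35585327: aaaaattagaTGACTCAactctaggat

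A match to these letters is a description of the sequence, and whether a factor was bound there was not measured. Unlike the stretch of Cyp1b1, some of these stretches overlap exons. From 365 to 66 bases before the start of Cyp1a1, 233 bases lie in an exon of Cyp1a1 itself. In the last 300 bases, all 300 of Tiparp lie in an exon of Gm38503, and 257 of Ahr in one of Gm48236. The distances therefore hold for the canonical start only. Cyp1b1 and Cyp1a1 share a density of AHR elements that few genes reach, and differ in where the elements lie before their canonical starts.

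**Figure D1:**
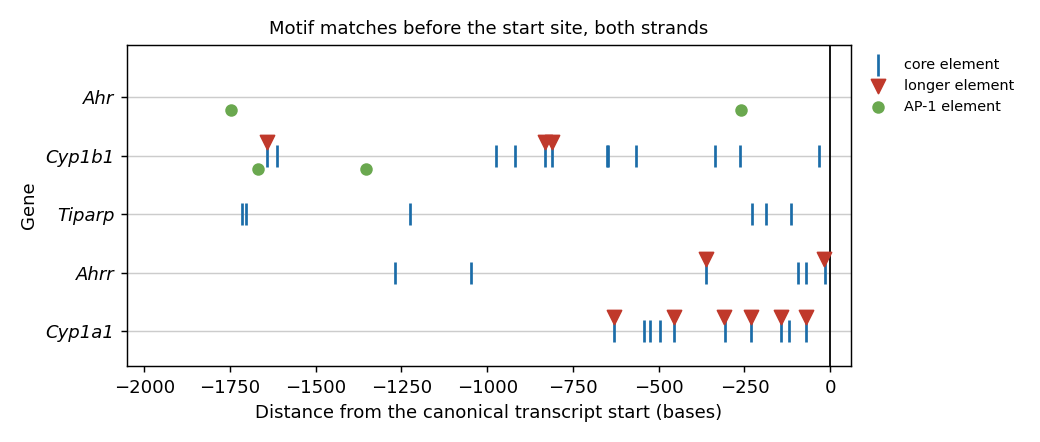
Positions of motif matches in the 2000 bases before the canonical start of each gene (x axis, bases, with 0 at the start). Ticks are the core GCGTG, triangles the longer TNGCGTG and circles TGANTCA, the loose form of the AP-1 element. The 6 longer elements of Cyp1a1 lie within 630 bases of the start, and those of Cyp1b1 lie 812 bases or more before it. Ahr shows only TGANTCA.

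The deposited values are normalized counts, that is, reads per gene divided by a size factor for each library and rounded to whole numbers. They summed to between 7149102 and 7268785 per mouse and correspond to about 6753000 to 7564000 reads on the listed genes, estimated from the whole numbers that rounding left empty or filled by more than 1 read count. Another scaling by trimmed means changed the libraries by factors between 0.997 and 1.003. The spread between mice is given as the coefficient of variation (CV), the SD divided by the mean. In the 9358 genes that reached a mean of 200, the median CV was 7.37%, and 749 genes (8.00%) had a CV over 20%, the threshold used below. Without mouse 1 this count was 455. The 12 endothelial markers had a summed level of 28182 to 29317 normalized counts and were present in every mouse. In mice 1, 2 and 3, Cdh5 had 2808, 2860 and 2930, Pecam1 2722, 2847 and 2668, and Flt1 5352, 4588 and 4816. Without an input library, these levels cannot show how far endothelial RNA was enriched. Markers of cardiomyocytes were also abundant, with a summed level of 20679 to 24237 over 10 genes. Ddx3y on chromosome Y had 1080, 3 and 1 normalized counts and Xist 4, 618 and 869, so that mouse 1 stood apart from mice 2 and 3 in genes linked to sex.

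Cyp1b1 (ENSMUSG00000024087), which encodes cytochrome P450 1B1 and occupies chr17:80008966-80022490 of GRCm39 on the minus strand. Its canonical transcript has 3 exons and 5190 bases. The normalized count was 261, 153 and 586 in mice 1, 2 and 3. Mouse 3 was thus more than 2 times as high as each of the other mice, and mouse 2 was the lowest. These values rest on about 267, 144 and 610 reads. Their exact Poisson 95% intervals, 230.4 to 293.9, 128.7 to 179.7 and 540.6 to 634.6 normalized counts, cover counting error only. The mean was 333.3 ± 225.4 (SD, n = 3 mice), and the highest value was 3.83 times the lowest. On the log2 scale, mouse 3 lay 1.501 above the mean of mice 1 and 2. The CV was 67.6%, whereas counting alone gives 5.48% at this level, and the variance was 152 times the mean. Without mouse 3 the CV was 36.9%. In bulk RNA of this kind, fewer cells that express a gene and less RNA per cell cannot be told apart.

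Only 3 of the 9358 genes had a larger CV than Cyp1b1, namely Ddx3y with 172%, Xist with 89.5% and the AP-1 gene Fosb with 79.0%. Mouse 3 was at least 1.5 times as high as both other mice in 75 of the 9358 genes (0.801%), and at least 2 times as high in 8 (0.0855%), of which Cyp1b1 is a member. With mouse 3 set against 1 other mouse only, a looser rule, the count was 151 without mouse 1 and 371 without mouse 2. Mice 2 and 3, which resembled each other in Xist and Ddx3y, held the lowest and the highest value of Cyp1b1. Sex cannot be told apart here from other differences between mice, and its part in the spread of Cyp1b1 was not tested.

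**Figure D2:**
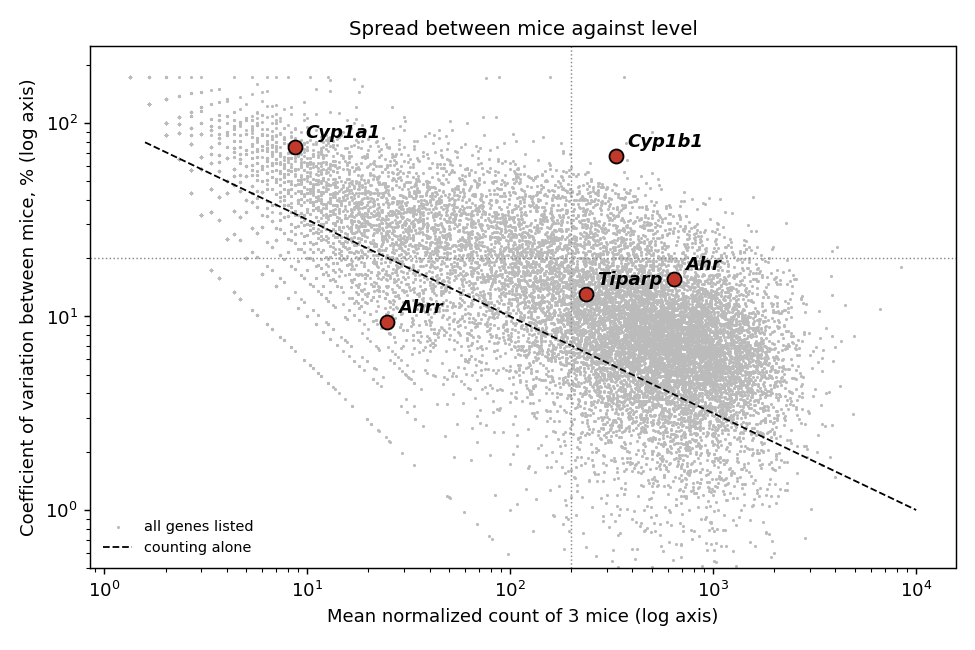
CV between the 3 mice (y axis, percent, log scale) against the mean normalized count (x axis, log scale) for all listed genes with a CV above 0.5% (grey), with the members in red. The dashed line is the CV that counting alone gives, dotted lines mark a mean of 200 and a CV of 20%, and Cyp1b1 (67.6%) lies above nearly all genes of its level, whereas Ahrr (9.36%) lies below the counting line.

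The receptor itself varied much less. Ahr (ENSMUSG00000019256), at chr12:35547973-35585037 on the minus strand, gave normalized counts of 743, 542 and 639 in mice 1, 2 and 3. Mouse 2 was the lowest and mouse 1, not mouse 3, was the highest. The mean was 641.3 ± 100.5 (SD, n = 3), with a CV of 15.7% against 3.95% from counting alone. Of the 9358 genes, 13.5% had a larger CV. On the log2 scale mouse 3 lay at -0.01 relative to the mean of mice 1 and 2. The ratio of Cyp1b1 to Ahr was 0.351, 0.282 and 0.917.

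The 6 genes of the receptor complex described here were all listed. Arnt, the partner of AHR in the nucleus, had 980, 903 and 1046 normalized counts in mice 1, 2 and 3. Its CV was 7.33%, and its close relative Arnt2 was near the floor with 4, 5 and 17. Ptges3, which encodes p23, had 442, 496 and 428. Of the HSP90 genes, Hsp90ab1 had 1955, 2083 and 1920. Hsp90aa1, the stress-inducible form, had 386, 601 and 555, with a CV of 22.03%. It was the only gene of the complex with a mean of at least 200 whose CV was over 20%. Thus 1 of 5 such genes passed the threshold, against 8.00% of all genes tested. Mouse 3 was the highest library for Arnt and Arnt2 only, and exceeded both other mice by 1.5 times or more for Arnt2 alone.

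The feedback genes Tiparp and Ahrr varied less than Cyp1b1. Tiparp (ENSMUSG00000034640), at chr3:65435831-65462939 on the plus strand, gave 256, 201 and 253 normalized counts in mice 1, 2 and 3. Mice 1 and 3 were nearly equal and mouse 2 was lower. The mean was 236.7 ± 30.9 (SD, n = 3), with a CV of 13.1% against 6.50% from counting, and 19.6% of the 9358 genes had a larger CV. Ahrr (ENSMUSG00000021575), at chr13:74359237-74440450 on the minus strand, had 26, 22 and 26 normalized counts. Its mean of 24.7 ± 2.3 (SD, n = 3) gave a CV of 9.36%, under the 20.1% that counting alone gives at this level, so no difference between the mice was detectable at this depth. Exons of antisense long noncoding RNAs overlap those of Tiparp and Ahr, and the reads were counted by strand.

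Cyp1a1, the classical reporter of AHR activity, was close to the floor of the table, which lists no gene whose highest value is below 4. Cyp1a1 (ENSMUSG00000032315), at chr9:57595211-57611107 on the plus strand, gave 15, 2 and 9 normalized counts in mice 1, 2 and 3, or 8.7 ± 6.5 (SD, n = 3). The highest value fell in mouse 1 and the lowest in mouse 2. The exact Poisson 95% intervals were 8.20 to 24.2, 0.257 to 7.66 and 3.95 to 16.4, and those of mice 1 and 2 did not overlap, while that of mouse 3 overlapped with both. At about 15, 2 and 9 reads, the CV of 75.1% is set against 34.0% from counting. On the log2 scale mouse 3 lay 0.08 above the mean of mice 1 and 2.

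**Figure D3:**
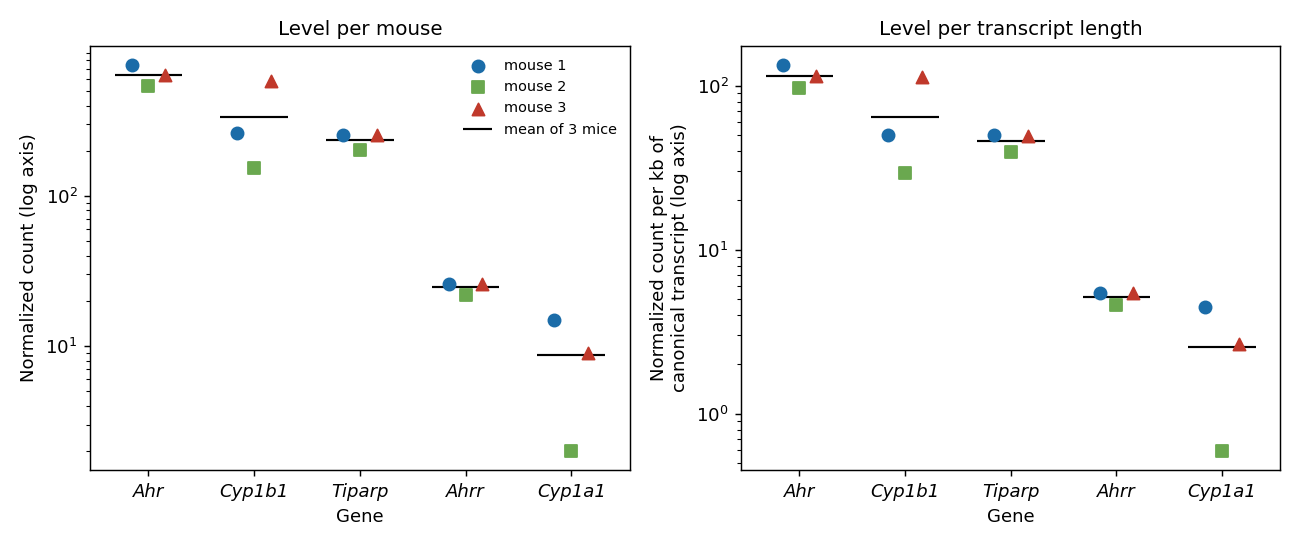
Normalized count (left) and normalized count per kilobase of canonical transcript (right) of the 5 members in each mouse, both on log axes, with black bars for the mean of the 3 mice. Mouse 3 stands above the others for Cyp1b1 (586 against 261 and 153), and mouse 2 is the lowest point for every gene shown.

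Mouse 2 was the lowest library for 5 of the 5 members, against 30.1% of all 17583 listed genes and 28.5% of those above the minimum mean. This count was 5 under both other scalings as well. The gap was small for Ahrr, where it was within counting error. For Tiparp, the exact Poisson interval of mouse 2 (173.8 to 232.2) overlapped those of mouse 1 (225.8 to 288.8) and mouse 3 (223.1 to 285.2). For Cyp1a1, the interval of mouse 2 overlapped that of mouse 3. Only for Cyp1b1 and Ahr did the interval of mouse 2 lie below those of both other mice. The order found for Cyp1b1, from mouse 3 over mouse 1 to mouse 2, occurred in no other member, and it occurred in 14.1% of all listed genes and in 13.6% of those above the minimum mean. Of the 5 members, 3 had a mean of at least 200 (Cyp1b1, Ahr and Tiparp), and Cyp1b1 was the only one of these with a CV over 20%, against 8.00% of all genes tested.

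The wider list of AHR targets held 10 genes, of which Cyp1a2, Ugt1a6a and Gsta1 were not listed in the table. Of the 3 targets with a mean of at least 200, only Cyp1b1 passed the threshold of 20%, against 8.00% of all genes tested. The median CV of the 3 was 13.1%, against 7.37% for all genes tested. Aldh3a1, an aldehyde dehydrogenase of the classical AHR battery, was below that mean but showed the order of Cyp1b1. Its normalized count was 39, 12 and 104 in mice 1, 2 and 3. The exact Poisson 95% intervals, 27.9 to 53.2, 5.82 to 20.9 and 85.1 to 125.3, cover counting error only. The highest value of Aldh3a1 was 8.67 times its lowest. Cyp1a1 also had a wide range, with a highest value 7.5 times its lowest, but in another order and on few reads. Nqo1, a quinone reductase that NRF2 also controls, had 159, 187 and 189. Nfe2l2, which encodes NRF2, had 1103, 1055 and 1046, with a CV of 2.87%. The order from mouse 3 over mouse 1 to mouse 2 was found for 2 of 7 targets, against 14.1% of all listed genes. Mouse 2 was the lowest library for 5 of 7, against 30.1%. Apart from Aldh3a1, the genes behind both counts are members already counted above.

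Enzymes of tryptophan and kynurenine breakdown, a pathway that yields AHR ligands, had low normalized counts, and none reached a mean of 200. Ido1, which opens the tryptophan ring, had 127, 114 and 88 normalized counts in mice 1, 2 and 3, and Il4i1, an amino acid oxidase, had 108, 91 and 90. The kynurenine aminotransferases Kyat1 and Kyat3 had 148, 82 and 117, and 159, 142 and 132. Afmid, Kmo and Ido2 did not exceed 20 in any mouse, and Tdo2 and Kynu were not listed. Per kilobase of canonical transcript, Ido1 had 70.2, Kyat1 54.0, Kyat3 35.9 and Il4i1 35.1, beside 64.2 for Cyp1b1. Afmid, Kmo and Ido2 lay at 6.91 or less on this scale. No gene of this list had its highest value in mouse 3, against 32.2% of all listed genes.

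**Figure D4:**
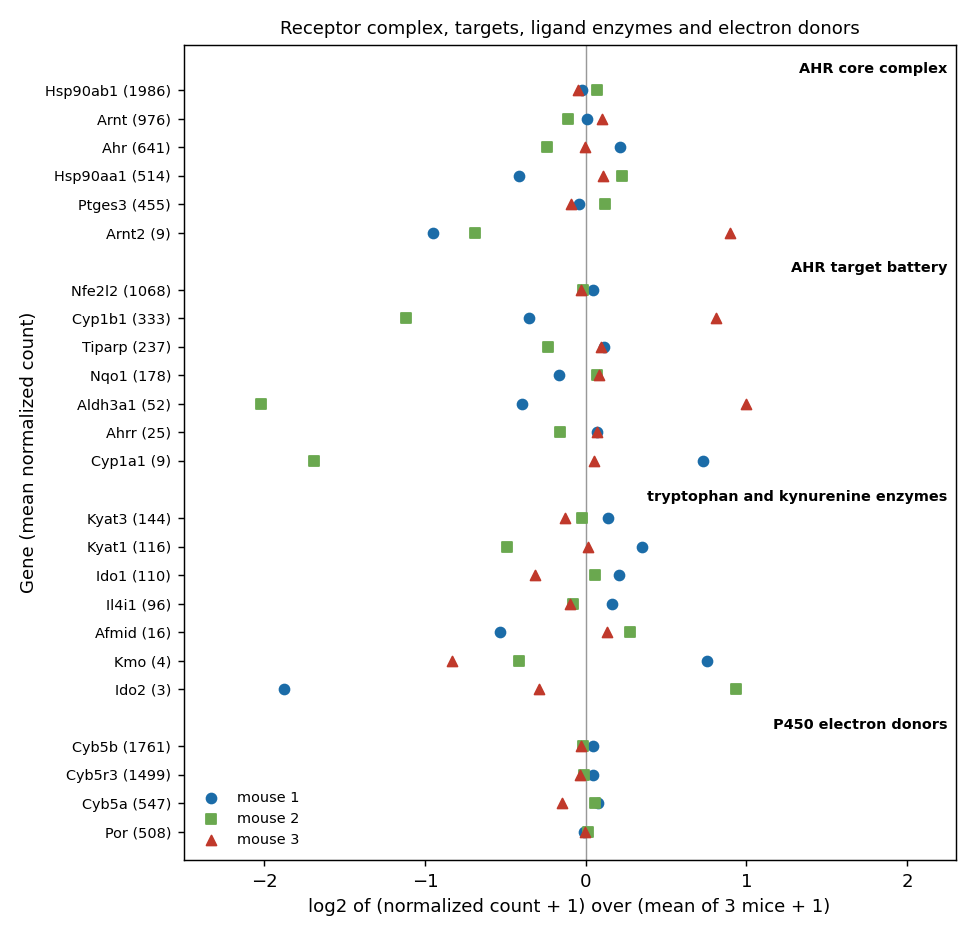
log2 of the normalized count plus 1 in each mouse over the mean of the 3 mice plus 1 (x axis) for the listed genes of the receptor complex, the AHR targets, the tryptophan and kynurenine enzymes and the electron donors of P450 enzymes, each with its mean normalized count in parentheses. Mouse 3 lies farthest to the right for Aldh3a1 (104 against 39 and 12), Arnt2 (17 against 4 and 5) and Cyp1b1 (586 against 261 and 153).

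Levels of different genes were compared per kilobase (kb) of canonical transcript. Ahr was the highest member with 115.2 ± 18.1 normalized counts per kb (SD, n = 3), followed by Cyp1b1 with 64.2 ± 43.4, Tiparp with 46.2 ± 6.0, Ahrr with 5.18 ± 0.48 and Cyp1a1 with 2.57 ± 1.93. Among all listed genes with a length, 60.8% lay below Ahr, 47.4% below Cyp1b1 and 8.92% below Cyp1a1 on this scale. Ahr exceeded Cyp1b1 per kb in 3 of 3 mice, and the log2 ratio averaged 1.05 ± 0.90 (SD over 3 mice), with a two-sided p of 0.25 by an exact sign-flip test. This is the smallest p that 3 mice allow, so no ratio here can pass 0.05. In mouse 3 alone the log2 ratio of Ahr to Cyp1b1 was 0.02. Cyp1b1 and Tiparp did not differ beyond their spread, with a log2 ratio averaging 0.26 ± 0.83 (SD over 3 mice; p = 0.75 by the same exact test), and without mouse 3 the ratio was -0.20. By the joined length of all exons, however, Cyp1b1 exceeded Tiparp in each mouse, with an average log2 ratio of 0.94 (exact p = 0.25). Tiparp exceeded Ahrr by 3.15 ± 0.06 (SD over 3 mice; exact p = 0.25). Ahrr exceeded Cyp1a1 in 3 of 3 mice by 1.43 ± 1.38 (SD over 3 mice; exact p = 0.25). This ratio was 0.66 without mouse 2, and 0.65 by the joined length of all exons (exact p = 0.75).

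Cyp1b1 was placed among the 26 cytochrome P450 genes listed in the table. By mean normalized count it ranked 7 of 26, and per kb it ranked 12. The highest P450 gene was Cyp4b1, with 1113, 1017 and 1003 normalized counts in mice 1, 2 and 3, and Cyp1a1 ranked 20. Cyp26b1, which degrades retinoic acid, had 1263, 811 and 590, the highest in mouse 1 and the lowest in mouse 3. Cyp2d22 had 920, 669 and 840, Cyp20a1 had 531, 514 and 520, and Cyp2j6 had 513, 465 and 356. Of the 11 P450 genes with a mean of at least 200, Cyp1b1, Cyp26b1 (38.6%) and Cyp51 (26.0%) had a CV over 20%. Among all genes tested the share was 8.00%. Cyp51, a sterol demethylase, had 195, 308 and 209. Neither Cyp26b1 nor Cyp51 had its highest value in mouse 3. The electron donors of these enzymes were steady. Por, the P450 oxidoreductase that CYP1B1 depends on, had 505, 513 and 506 normalized counts, with a CV of 0.858%. Cyb5a, Cyb5b and Cyb5r3 had CVs between 2.80% and 8.31%.

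The genes most like Cyp1b1 were sought by the distance between log2 values over the 3 mice, each gene centred on its own mean, among genes above the minimum mean. With 3 libraries many genes can come close, so the likeness is a description. The nearest was Ahsg, which encodes fetuin-A, with 190, 130 and 421 normalized counts in mice 1, 2 and 3 and a distance of 0.190. Nrxn2 (173, 113 and 328), Tmem108 (328, 209 and 589), Plagl1 (363, 254 and 705) and Cdh11 (464, 302 and 835) followed at distances of 0.285 to 0.339. With a minimum mean of 50 in place of 200, only 1 of these 5 genes stayed among the nearest 5.

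Tmem108 was also on a list of venous and endocardial markers, and 4 of the 10 genes of that list had the order of Cyp1b1, against 14.1% of all listed genes. The endocardium is the endothelial lining of the heart chambers. Npr3, a natriuretic peptide receptor that marks it, had 1589, 914 and 2228 normalized counts in mice 1, 2 and 3. Cytl1 had 555, 424 and 614. Vwf, von Willebrand factor, had 1898, 1886 and 3098. Of the genes with another order, Hapln1 (18, 22 and 56), Nfatc1 (1305, 1386 and 1658), Plvap (785, 852 and 937) and Selp (74, 210 and 214) were highest in mouse 3 but lowest in mouse 1. The venous regulator Nr2f2 (999, 965 and 919) was lowest in mouse 3, and Ackr1 (24, 116 and 69) was highest in mouse 2. Mouse 3 was the highest library for 8 of the 10 genes, against 32.2% of all listed genes. The summed level of the list was 7575, 6984 and 10382. The ratio of Cyp1b1 to Npr3 was 0.164, 0.167 and 0.263, and its CV was 28.3%, less than the 67.6% of Cyp1b1 alone. The ratio to Tmem108 was 0.796, 0.732 and 0.995 with a CV of 16.3%, and the ratio to the general endothelial marker Cdh5 kept a CV of 65.6%. These ratios were chosen after the values had been seen, and Tmem108 was picked as one of the genes most like Cyp1b1. The part of endocardial content in the spread of Cyp1b1 was not tested.

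Markers of other cell types differed between the mice as well. The summed level of 10 fibroblast markers was 3804, 4722 and 5385 in mice 1, 2 and 3, that of 10 mural cell markers 3395, 4175 and 4327, and that of the 9 listed leukocyte markers 936, 1248 and 1206. In each of these sums mouse 1 was the lowest. The fibroblast sum joins genes that went both ways. Dcn (813, 579 and 1007), Lum (458, 309 and 618) and Gsn (579, 537 and 947) had the order of Cyp1b1. That is 3 of 10 markers, against 14.1% of all listed genes. By contrast, Col1a1 (378, 642 and 401), Col3a1 (388, 798 and 655) and Postn (344, 741 and 671) were highest in mouse 2. Their defining markers were present at low levels, with Pdgfra at 196, 203 and 258, Pdgfrb at 212, 254 and 280, and Ptprc at 94, 190 and 154. By normalized count the leading mural and leukocyte markers were Mcam (1640, 1957 and 1827) and Cd74 (265, 295 and 279). Mcam thus made up a large part of the mural sum, and which cells its RNA came from was not measured. Gsn and Tagln (103, 206 and 338) were the fibroblast and mural markers with a mean of at least 200 in which mouse 3 was at least 1.5 times as high as both other mice. Below that mean, Tcf21 (16, 29 and 45), Acta2 (67, 128 and 210) and Myh11 (31, 118 and 240) also met this limit. The arterial markers had a summed level of 10768, 9886 and 10124, led by Efnb2 (2268, 1966 and 2047), and the cardiomyocyte markers 20679, 21339 and 24237, with Ttn highest in mouse 3 (10190 against 7379 and 7743) and Myh6 at 3428, 3701 and 3643. The part of these cell types in the level of Cyp1b1 was not tested.

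Immediate early genes, which cells switch on within minutes of a stimulus, include the AP-1 genes Fos and Fosb. Fos had 252, 220 and 652 normalized counts in mice 1, 2 and 3, and Fosb had 204, 198 and 707. Both shared the order of Cyp1b1, with mice 1 and 2 closer to each other than they were for Cyp1b1. Of the 13 genes of this list with a mean of at least 200, 3 had a CV over 20%, the third being Egr1 with 1254, 996 and 1525. Over all genes tested, 8.00% had a CV over 20%. The median CV of these 13 genes was 8.33%, against 7.37% for all genes tested.

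**Figure D5:**
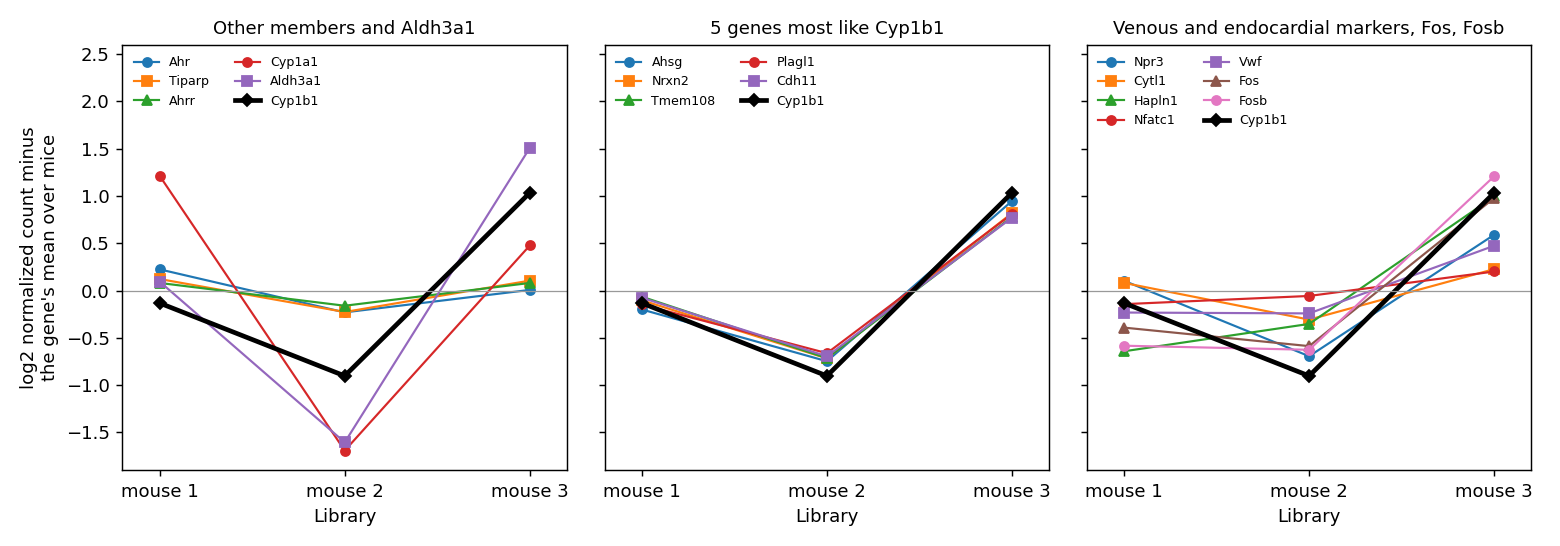
log2 normalized count of each gene minus its own mean over the 3 mice (y axis) in mice 1 to 3, with Cyp1b1 as the thick black line in each panel; lines only join the points of a gene, since the mice have no order. The other members except Cyp1a1 stay between -0.23 and 0.22 on this scale. Aldh3a1 follows Cyp1b1, as do the 5 nearest genes, which were picked for this likeness. The venous and endocardial markers drawn, Npr3, Cytl1, Hapln1, Nfatc1 and Vwf, also have their highest point in mouse 3.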

How the data were processed

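Per the labels and the methods of the study, the authors used Trimmomatic for trimming, STAR for alignment to mm39 (GRCm39), Picard to drop duplicates, and featureCounts to count reads by strand. Ribosomal, mitochondrial and multi-mapping reads, and reads on several genes, were left out, and the authors normalized the counts with DESeq2. The deposited unit is a score, since these normalized counts were rounded to whole numbers and are not raw counts, so no count model was fitted. Dropping duplicates of single-end reads can lower the counts of abundant transcripts.

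The 3 libraries were mapped by sample title and treated as separate mice, as the labels call them biological replicates. The members and gene lists were chosen with earlier results of these data known. A gene of the receptor complex list is not reported here. Means, SDs and CVs were computed over mice. The worth of 1 read in each library (0.977, 1.06 and 0.961 normalized counts) gave the reads behind exact Poisson 95% intervals. The script for spread, scaling and likeness was tested on simulated data. Neighbouring members were compared by an exact sign-flip test.

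Lengths and start sites come from the GENCODE annotation of GRCm39, which is newer than that of the authors and gives a length for 17475 of the 17583 genes (99.39%). Symbols not found were looked up among RefSeq synonyms, which matched Bmal1 to Arntl. By a fixed rule the text names the members, the other genes of the receptor complex (with the exception above) and the targets. It names the tryptophan and kynurenine enzymes, the electron donors, the 5 highest P450 genes, and the 5 genes nearest to Cyp1b1. It also names the 3 highest bHLH-PAS and PARP genes, the immediate early, flow and clock genes with a CV over 20%, and, of each cell type list, its highest gene, its defining markers and genes with mouse 3 at least 1.5 times both other mice. Other genes were named after their values had been seen. Alternatives were rescaling by trimmed means (trimming 30% of log ratios and 5% of levels) or to equal totals, other minimum means, pseudocounts and lengths, and leaving out each mouse. Python 3.11.15 with numpy 2.4.6, pandas 2.3.3, scipy 1.17.1 and matplotlib 3.10.9 was used.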

Additional observations from a re-analysis of the deposited data

How the results depend on the processing

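Among 101 alternative values, 83 stayed within a set limit, 17 moved and 1 reversed. The limit was a factor of 1.5 for CVs, counts and ranks, and the SD for levels and the log2 difference. For ratios of neighbouring members it was the sign alone. Such a ratio could thus stay within the limit and still change in size, as Cyp1b1 to Tiparp did from 0.26 to 0.94 by joined exon length. Rescaling by trimmed means or to equal totals changed no result beyond these limits. With a mouse left out in turn, the CV of Cyp1b1 lay between 36.9% (without mouse 3) and 82.9%. In these runs the number of genes with a CV over 20% lay between 455 and 921. The log2 ratio of Cyp1b1 to Tiparp per kb lay between -0.20 and 0.60. Without mouse 1 or 2, the number with mouse 3 at least 1.5 times as high was 151 or 371, since mouse 3 then had to exceed 1 mouse only. The number of genes with a CV over 20% was 1273 at a minimum mean of 100, 1785 at 50 and 6305 with no minimum, because more genes of low level were tested. For the same reason the AHR targets over 20% were 2 at a minimum mean of 50 and 3 with none, and the genes with mouse 3 at least 1.5 times as high were 207 at a minimum of 50. By a factor of 2 in place of 1.5 they were 8. Cyp1b1 ranked 12 of the P450 genes per kb in place of 7, and 1 of its 5 nearest genes was kept at a minimum mean of 50. Chosen after seeing the data, division by Npr3 gave Cyp1b1 a CV of 28.3% and a log2 difference of mouse 3 from mice 1 and 2 of 0.67, and division by Tmem108 gave 16.3% and 0.38, the cause of which was not tested. No paired analysis was possible because there is a single group. Depth limits Cyp1a1 and Ahrr, which rest on between 2 and 27 reads per mouse.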

Other observations

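The receptor and Tiparp belong to the bHLH-PAS and PARP families. Of the bHLH-PAS family, 15 of 19 genes were found by symbol or synonym, and the 9 of them with a mean of at least 200 had a median CV of 14.3%, against 7.37% for all genes tested. Over the 15 genes, 7 had the order of Cyp1b1, 9 were lowest in mouse 2 and 10 highest in mouse 3, against 14.1%, 30.1% and 32.2% of all listed genes. By normalized count the highest were Epas1, with 3609, 3448 and 3623 normalized counts in mice 1, 2 and 3, Ncoa3 with 1529, 1358 and 1556, and Hif1a with 1054, 1405 and 1235. Of the 9, only Arntl, the clock gene also named Bmal1, had a CV over 20%, with 201, 178 and 290. All 15 genes of the PARP family were listed with a mean of at least 200, with a median CV of 7.29%, those with the highest normalized counts being Tnks2 (2081, 2006 and 2027), Parp14 (1400, 1401 and 1430) and Tnks (883, 976 and 1020). Parp3, with 208, 300 and 309, was the only one with a CV over 20%. Among all genes tested, 8.00% passed this threshold.

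Of 8 genes that respond to blood flow, none had a CV over 20%, against 8.00% of all genes tested. Their median CV was 6.16%. The order of Cyp1b1 was found for 2 of the 8, Klf4 and Edn1 (498, 479 and 546), against 14.1% of all listed genes. Klf2 had 1505, 1523 and 1386 normalized counts in mice 1, 2 and 3, Klf4 had 1649, 1599 and 1718, and Nos3 had 1641, 1654 and 1818. Among 12 clock genes with a mean of at least 200, Per1 had 789, 697 and 1126 and Arntl was as above, while the others had a CV of 20% or less. The 6 markers of epicardium and mesothelium had a summed level of 969, 1216 and 1231. Wt1 (871, 1055 and 939) made up most of it, whereas the others had means of 73.3 or less. Which cells the Wt1 RNA came from was not measured, so the sum does not measure epicardial content. Mouse 3 was the highest library for 4 of the 6, against 32.2% of all listed genes. The order of Cyp1b1 was found for 2 of them, Muc16 (42, 39 and 132) and Lrrn4 (3, 0 and 4), against 14.1%. Upk3b had 10, 10 and 33. The part of these cells in the level of Cyp1b1 was not tested.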
